A study of Mus musculus with 12 samples.

Results

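The renin-angiotensin system is a peptide hormone cascade that sets blood pressure, glomerular filtration and sodium retention. Angiotensinogen is cut by renin to angiotensin I, angiotensin-converting enzyme trims that peptide to angiotensin II, and angiotensin II acts mainly through the AT1 receptor. The kidney makes every component of the cascade itself: renin in granular cells of the afferent arteriole, and angiotensinogen, the converting enzyme and several peptide-degrading enzymes in the proximal tubule.

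Transcripts of 8 genes of this system were followed in whole kidneys: the substrate Agt, the enzymes Ren1 and Ace, the receptor Agtr1a, its binding partner Agtrap, the (pro)renin receptor Atp6ap2, and the peptidases Mme and Enpep. They were chosen by gene name from 22053 rows of the deposited expression table. The choice of genes used no measured value but was made with earlier results of these data known. All 8 were among the 13148 genes tested. The 12 animals were wild-type C57BL/6 mice, 4 per group. CKD mice ate a diet with 0.2% adenine from 8 to 16 weeks of age, which injures the tubules and causes chronic kidney disease, and received weekly PBS injections. CKD+Fe mice ate the same diet and received weekly intraperitoneal iron dextran at 0.5 g/kg. Control mice ate the matching diet without adenine and received PBS. RNA came from the whole organ, so fewer cells of a type and less RNA per cell cannot be told apart.

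Values are FPKM, a read density per unit of transcript length adjusted for library size, which allows levels of different genes to be compared. Differences between groups are on the log2(FPKM + 1) scale with limma's Benjamini-Hochberg adjusted p across all tested genes, and a gene was called past an adjusted p of 0.05. Marker transcripts of proximal tubule, distal tubule, collecting duct, podocytes and endothelium were present in every mouse. Adrenal markers summed to at most 2.47 FPKM, with Cyp11b2 listed at 0 in all 12 mice. Control mouse 3, CKD mouse 3 and CKD+Fe mouse 1 stood apart from their groups, with 596, 806 and 442 genes at least 2-fold away from the other mice of the group against 42 to 225 genes in the other 9 mice. Collecting duct markers summed to 1781 FPKM in control mouse 3, above the 3 other control mice. Both adenine groups also shifted as a whole: on the log2 scale, the median of all tested genes was 0.50 above control in each, while CKD+Fe differed from CKD by -0.00050. A median-of-ratios rescaling, which equalizes the typical gene between mice, removed that shift, and changes of members are therefore given on both scales where they differ.

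The members lay on 7 chromosomes of the mouse genome build GRCm38, and each deposited position matched the start and end in the GENCODE annotation. Agt covered 124556534 to 124569706 of chromosome 8 on the minus strand, and Ren1 covered 133350510 to 133360325 of chromosome 1 on the plus strand. Ace covered 105967945 to 105989964 of chromosome 11 on the plus strand and overlapped the antisense gene Gm11651. Agtr1a covered 30336441 to 30382867 of chromosome 13 on the plus strand with a noncoding gene, Gm48161, inside an intron. Agtrap covered 148077061 to 148088031 of chromosome 4 on the minus strand, and Atp6ap2 covered 12587801 to 12617049 of chromosome X on the plus strand. Mme, at 63241537 to 63386030 on the plus strand, and Enpep, at 129269175 to 129332720 on the minus strand and overlapping the pseudogene Gm42628, both lay on chromosome 3. The libraries were stranded, but whether the FPKM used strand is not given in the sources used here, so reads of Ace and of Gm11651 may not have been separated.

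The 250 bases before the start site are shown for Ace and Agt because these were the members called in both adenine groups against control, in opposite directions. The sequences are from RefSeq on GRCm38.p6, 5′ to 3′ on the strand of the gene, at chr11:105967698-105967947 on the plus strand for Ace and chr8:124569707-124569956 on the minus strand for Agt. The Ace window thus ends slightly inside the gene position given above, which starts at 105967945. Capitals mark motif matches: the TATA box TATAAA and the GC box GGGCGG in Ace, and the TATA box and the STAT site TTCNNNGAA in Agt, each searched on both strands.

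Ace: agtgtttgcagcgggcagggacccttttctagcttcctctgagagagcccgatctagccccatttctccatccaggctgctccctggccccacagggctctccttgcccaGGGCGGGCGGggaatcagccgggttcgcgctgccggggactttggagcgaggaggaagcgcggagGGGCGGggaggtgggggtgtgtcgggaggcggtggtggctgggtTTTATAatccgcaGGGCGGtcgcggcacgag
Agt: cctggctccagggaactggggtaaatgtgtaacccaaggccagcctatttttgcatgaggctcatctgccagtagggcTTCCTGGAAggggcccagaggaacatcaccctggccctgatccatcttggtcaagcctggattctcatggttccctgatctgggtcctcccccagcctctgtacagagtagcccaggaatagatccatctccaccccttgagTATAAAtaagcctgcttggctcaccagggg

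Both promoters held a TATA box close to the start site, at position -31 in Ace (read on the reverse strand, TTTATA) and at -30 in Agt. Anywhere in the window and on either strand, 12.4% of 32851 promoters of the same length held one. Ace had 4 GC boxes, at -140, -136, -75 and -18, of which the first pair overlap, against 32.7% of promoters with at least 1. Agt had a STAT site at -172, found in 7.02% of promoters, and no GC box. Ren1 had a TATA box at -29, Enpep had TATA, CCAAT and STAT matches, Atp6ap2 had CCAAT and GC boxes, the 3 Mme windows held GC boxes with a STAT site at -166 in the first and CCAAT boxes in the others, the second Ace window held a CCAAT box at -25, and the Agtrap window held none of the motifs searched. CCAAT was present in 33.8% of promoters. The cAMP response element TGACGTCA (1.55% of promoters) and the HNF1 site (0.00913%) were in no member's window. A promoter window was matched for 7 of 8 members, all but Agtr1a, with more than 1 window for Ace and Mme, of which the first is shown for Ace. These matches describe letters in a window and do not show that a factor binds there.

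In control kidneys the members ranked, by mean FPKM, Atp6ap2 (60.5), Ace (60.3), Ren1 (57.6), Agt (36.9), Enpep (28.4), Agtrap (27.3), Mme (19.7) and Agtr1a (19.5), and the ranges of neighbours in this order overlapped at every step. In CKD kidneys Atp6ap2 (73.8) and Agt (71.0) led, followed by Ren1 (37.6), Mme (33.6), Enpep (33.1), Agtrap (22.9), Agtr1a (14.1) and Ace (14.0). Ace thus moved from the second place to the last, and Agtrap above Agtr1a was the single neighbouring pair whose ranges did not overlap. CKD+Fe kidneys had the order Atp6ap2 (85.6), Agt (65.0), Ren1 (47.3), Enpep (38.4), Mme (26.4), Agtrap (20.7), Agtr1a (15.4) and Ace (10.2), again with overlapping neighbours throughout.

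**Figure D1:**
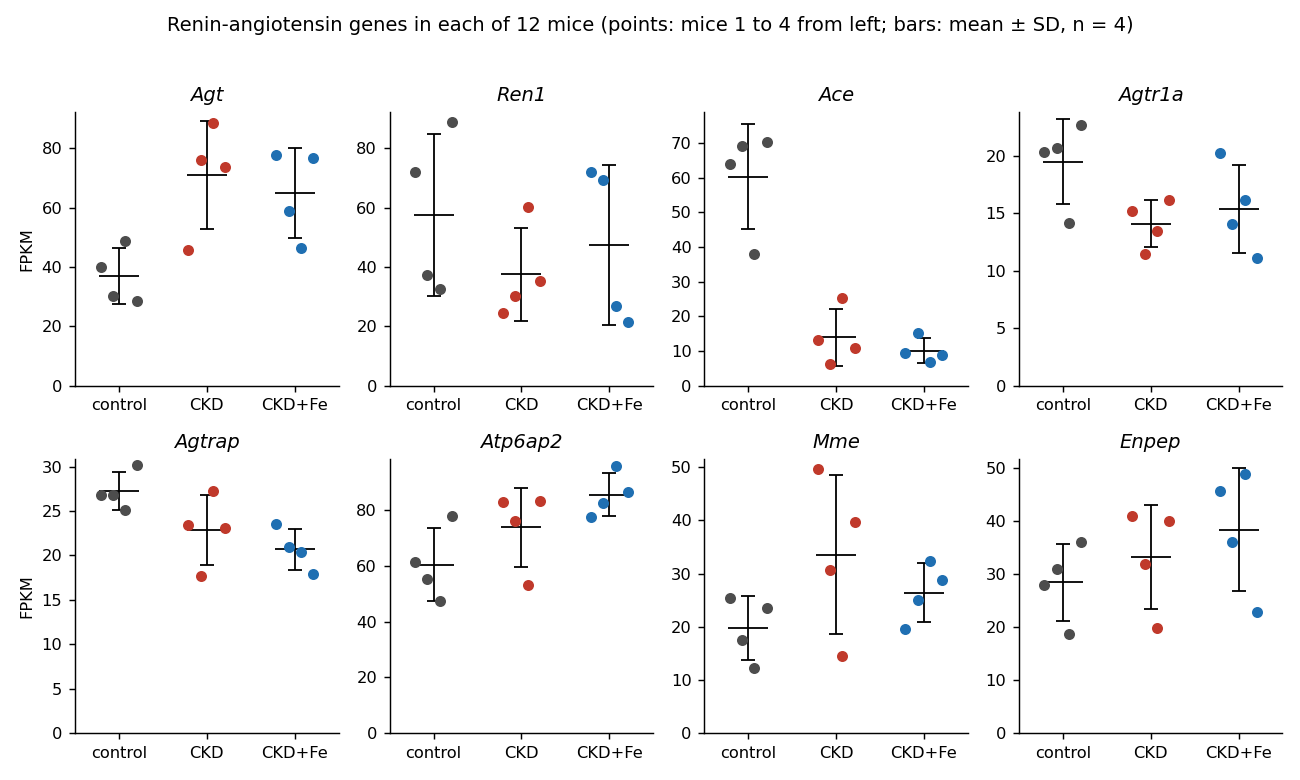
FPKM of the 8 members in each mouse, with mice 1 to 4 of each group from left to right and bars for mean ± SD (n = 4). Ace fell from 38.0 to 70.1 FPKM in control mice to at most 25.4 in CKD and 15.3 in CKD+Fe mice, while the other members overlapped between control and CKD.

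Against control, 1 member was called higher in CKD (Agt) and 1 lower (Ace), where 54.6% of all tested genes were called higher and 13.3% lower, 67.9% in all. Relative to the median of all tested genes, the CKD differences were 0.42 for Agt, -1.06 for Ren1, -2.65 for Ace, -0.93 for Agtr1a, -0.76 for Agtrap, -0.22 for Atp6ap2, 0.16 for Mme and -0.30 for Enpep. Ace was also the single member whose CKD and control mice did not overlap, lying below, as did 10.5% of tested genes. No member lay wholly above control in CKD, against 44.6% of genes. After median-of-ratios rescaling the background was 28.8% higher and 29.3% lower, 58.1% in all, no member was called higher, and 4 were called lower: Ace, Agtr1a, Agtrap and Ren1. After quantile normalization Agt was called higher and Ace, Agtr1a and Agtrap lower, against 23.3% and 25.6% of genes, 48.8% in all. The median log2 difference of the members was -0.029 as deposited and -0.59 after median-of-ratios rescaling, beside 0.50 and 0.012 over all tested genes.

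Agt, the only substrate of renin, was higher in CKD. It stood at 40.1, 30.4, 48.7 and 28.5 FPKM in control mice 1 to 4, at 45.6, 76.1, 88.4 and 73.9 in CKD mice, and at 77.9, 58.9, 46.3 and 76.9 in CKD+Fe mice. CKD mice 2, 3 and 4 exceeded every control, and CKD mouse 1 lay below control mouse 3. The mean rose from 36.9 ± 9.37 to 71.0 ± 18.1 FPKM (SD, n = 4 each), a ratio of 1.92. The log2 difference was 0.92 (SE 0.23, limma adjusted p = 0.0033), and an exact two-sided permutation test of the 70 arrangements of mice gave p = 0.0571. Median-of-ratios rescaling kept the direction but ended the call, with 0.35 (adjusted p = 0.206), while quantile normalization gave 0.84 (adjusted p = 0.00636). In CKD+Fe against control Agt was likewise called, at 0.80 (SE 0.23, adjusted p = 0.0081), and not after median-of-ratios rescaling (0.24, adjusted p = 0.388). The liver is the main source of circulating angiotensinogen, and the 4 hepatocyte markers were not uniform. Alb stood at 5.39 to 6.24 FPKM in control and 0.570 to 2.20 in CKD mice (-1.51, adjusted p = 0.0049), Apoa1 at no more than 3.25 in any mouse, and Serpina1a at 5.63 to 11.1 in control and 35.0 to 47.6 in CKD mice (2.21, adjusted p = 7.1e-06). Ttr, at 336 to 843 FPKM in control and 118 to 473 in CKD mice, made up 57.6 to 97.9% of the sum of the markers (348 to 861 FPKM in control, 157 to 519 in CKD and 140 to 769 in CKD+Fe mice). Their part in the Agt values was not tested.

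Ren1, the aspartyl protease that starts the cascade, varied widely within each group. Control mice 1 to 4 had 72.1, 37.3, 32.5 and 88.7 FPKM, CKD mice 24.6, 30.3, 60.1 and 35.2, and CKD+Fe mice 71.9, 69.2, 26.7 and 21.4. Control and CKD+Fe mice each split into a high and a low pair, and all 3 groups overlapped. The control mean was 57.6 ± 27.2 FPKM (SD, n = 4 each), the CKD mean 37.6 ± 15.7 and the CKD+Fe mean 47.3 ± 26.9. CKD differed from control by -0.56 (95% interval -1.47 to 0.35, limma adjusted p = 0.254, exact p = 0.2). Rescaling by median of ratios gave -1.13 (adjusted p = 0.0406), and leaving out the 3 mice that stood apart gave -1.04 (adjusted p = 0.0367).

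Among 20 genes listed as renin cell and macula densa regulators, 14 were tested, of which 7 were called higher and 1 lower in CKD. Of all tested genes 54.6% were called higher and 13.3% lower. The list's median log2 difference was 0.48, close to the 0.50 of all genes. After median-of-ratios rescaling 5 were higher and 3 lower, where 28.8% and 29.3% of all genes were, with a median of 0.13 beside 0.012. Ptger4, the prostaglandin receptor through which renin release is stimulated, was the largest rise: it went from 1.06 to 1.69 FPKM in control mice to 6.86 to 8.73 in CKD mice (1.95, adjusted p = 7.7e-07). Rbpj, the Notch pathway factor needed for renin cell identity, rose from 3.45 to 4.81 FPKM in controls to 8.38 to 13.9 in CKD mice (1.27, adjusted p = 2.1e-05). Both genes are also used by leukocytes, and 8 macrophage markers summed to 105 to 219 FPKM in control mice, 1619 to 3312 in CKD mice, and 1458 to 3395 in CKD+Fe mice. Nr1h3, a cholesterol-sensing nuclear receptor that regulates renin transcription, fell from 28.1 to 36.2 FPKM in controls to 11.2 to 21.6 in CKD mice (-1.05, adjusted p = 0.00021). Ptgs2, the macula densa enzyme that makes the prostaglandin signal for renin, was too low to be tested, at a mean of 0.126 FPKM in control and 1.01 in CKD mice. Mural and mesangial cell markers, 8 genes from the lineage to which renin cells belong, summed to 82.0 to 122 FPKM in control mice, 244 to 339 in CKD mice, and 217 to 342 in CKD+Fe mice. Tagln alone made up 26.1 to 47.7% of that sum. In CKD 7 of the 8 were called higher and 0 lower as deposited, and 3 higher and 1 lower after median-of-ratios rescaling. Myh11 did not rise, at 2.08 to 4.55 FPKM in control and 2.01 to 3.19 in CKD mice. The part of these cell types in the regulators' values was not tested.

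Ace, which makes angiotensin II, showed the largest change of the 8 members. Control mice 1 to 4 had 63.9, 69.0, 38.0 and 70.1 FPKM, CKD mice 13.2, 6.28, 25.4 and 11.0, and CKD+Fe mice 9.46, 15.3, 6.88 and 8.98. Control mouse 3 was the lowest control and CKD mouse 3 the highest CKD mouse, and even these did not meet. The mean was 60.3 ± 15.1 FPKM in control mice, 14.0 ± 8.15 in CKD mice, and 10.2 ± 3.60 in CKD+Fe mice, 4.31-fold and 5.94-fold lower than control. The log2 difference in CKD was -2.15 (SE 0.34, limma adjusted p = 9.7e-05, exact p = 0.0286, the smallest that 4 against 4 mice allow), and it stayed past the threshold in all 8 fits that left out 1 mouse (-2.47 to -1.85). Median-of-ratios rescaling gave -2.70 and quantile normalization -2.39, both called. The 12 proximal tubule markers summed to 3334 to 5088 FPKM in control mice, 768 to 1387 in CKD mice, and 908 to 1843 in CKD+Fe mice, none at 0 in any mouse.

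Agtr1a, the main angiotensin II receptor of the mouse kidney, was past the threshold in CKD after rescaling but not as deposited. Its values were 20.4, 20.7, 14.1 and 22.7 FPKM in control mice 1 to 4, 15.2, 11.5, 13.5 and 16.1 in CKD mice, and 20.2, 14.1, 16.1 and 11.1 in CKD+Fe mice. Control mouse 3 lay inside the CKD range, and the other 3 controls lay above every CKD mouse. The log2 difference in CKD was -0.43 (95% interval -0.84 to -0.028), with an adjusted p of 0.0553 by limma and an exact p of 0.0857. Without control mouse 3 it was -0.57 (adjusted p = 0.0135), and after median-of-ratios rescaling -0.98 (adjusted p = 0.000636). In CKD+Fe against control the values were -0.33 (adjusted p = 0.135) as deposited and -0.87 (adjusted p = 0.0017) rescaled. The other angiotensin receptors, Agtr1b and Agtr2, reached at most 0.110 and 0.357 FPKM in any mouse, and Mrgprd was listed at 0 in all 12. Mas1, the receptor of a shorter angiotensin peptide, was also too low to be tested, at 0.617 to 1.08 FPKM in control mice, 0.130 to 0.326 in CKD mice, and 0.0640 to 0.404 in CKD+Fe mice.

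Agtrap encodes a protein that binds the AT1 receptor and draws it into the cell. It stood at 26.8, 26.8, 25.2 and 30.2 FPKM in control mice, at 23.4, 17.7, 27.2 and 23.1 in CKD mice and at 23.5, 20.9, 20.3 and 17.9 in CKD+Fe mice. All 4 CKD+Fe mice were below every control, whereas CKD mouse 3 exceeded 3 of the 4 controls. CKD differed from control by -0.26 (95% interval -0.55 to 0.042, adjusted p = 0.116) as deposited, by -0.34 without CKD mouse 3 (adjusted p = 0.0358) and by -0.81 after median-of-ratios rescaling (adjusted p = 0.000436). In CKD+Fe the difference from control was -0.39 (limma adjusted p = 0.0254, exact p = 0.0286), and -0.93 rescaled (adjusted p = 0.000186).

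A list of 15 genes that carry or damp the signal below the AT1 receptor was tested in full, so its counts give no direction of signalling. In CKD 11 were called higher and none lower, where 54.6% of all tested genes were higher and 13.3% lower. The median log2 difference was 0.79 beside 0.50 over all genes. After median-of-ratios rescaling 6 were higher and 1 lower, where 28.8% and 29.3% of all genes were, with a median of 0.26 beside 0.012. Arrb2, an arrestin that binds activated receptors, rose from 6.99 to 13.9 FPKM in controls to 34.5 to 56.1 in CKD mice (2.08, adjusted p = 9.6e-06). Rgs2, which shuts off the Gq protein that the receptor uses, rose from 4.79 to 7.31 FPKM to 19.2 to 25.3 (1.62, adjusted p = 1.2e-06), and CKD+Fe mice reached 24.2 to 31.9. Arrb2 is abundant in leukocytes, whose markers rose as given above, and their part was not tested. Both stayed called after median-of-ratios rescaling (1.54 and 1.09).

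Atp6ap2 has a pair of roles, as the receptor that binds prorenin and renin and as an accessory protein of the vacuolar proton pump. Control mice 1 to 4 had 61.4, 55.1, 47.4 and 78.0 FPKM, CKD mice 82.8, 76.1, 53.3 and 83.2, and CKD+Fe mice 77.6, 82.6, 95.8 and 86.4. Control mouse 4 and CKD mouse 3 made the groups overlap. CKD differed from control by 0.29 (95% interval -0.086 to 0.66, adjusted p = 0.157), by 0.43 without CKD mouse 3 (adjusted p = 0.0243) and by 0.41 without control mouse 4 (adjusted p = 0.046). CKD+Fe was called higher than control, at 0.51 (SE 0.17, adjusted p = 0.0182, exact p = 0.0571). The direction turned after median-of-ratios rescaling, to -0.28 in CKD (adjusted p = 0.175) and -0.047 in CKD+Fe (adjusted p = 0.833). As deposited, the differences were -0.22 and 0.013 relative to the median of all tested genes.

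Among 18 other subunits and partners of the pump, all tested, 3 were called higher in CKD and 6 lower (median -0.16). Of all tested genes 54.6% were called higher and 13.3% lower (median 0.50). After median-of-ratios rescaling 1 was higher and 15 lower (median -0.73), beside 28.8% and 29.3% of all genes (median 0.012). Atp6v0d2, a subunit used in kidney and macrophage-lineage cells, rose from 10.8 to 13.0 FPKM in controls to 19.4 to 37.5 in CKD mice (1.22, adjusted p = 0.00011). Atp6v1b1, the subunit typical of intercalated cells, went from 34.4 to 49.9 FPKM to 41.0 to 71.2 (0.50, adjusted p = 0.0202), and the rescaled value was -0.069 (adjusted p = 0.746). Atp6v1e1 and Atp6v1g1, subunits of the cytosolic part of the pump found in most cell types, fell, with Atp6v1e1 at 225 to 260 FPKM in control and 167 to 182 in CKD mice (-0.51, adjusted p = 0.0014) and Atp6v1g1 at 134 to 188 and 102 to 119 (-0.46, adjusted p = 0.0056). Within a mouse, Atp6ap2 minus the mean of these subunits was -0.63 ± 0.271 in control kidneys, -0.28 ± 0.288 in CKD kidneys, and -0.20 ± 0.0937 in CKD+Fe kidneys. The differences from control, 0.35 (exact p = 0.114) and 0.43 (exact p = 0.0571), were not past 0.05. By the same measure the median of all tested genes lay 0.56 above control in CKD and 0.42 in CKD+Fe. Without overlap, 48.3% and 45.2% of genes lay above control, whereas Atp6ap2 overlapped control in both.

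Mme, or neprilysin, degrades angiotensins and natriuretic peptides at the brush border. It stood at 25.4, 17.5, 12.2 and 23.6 FPKM in control mice, at 49.6, 30.6, 14.4 and 39.7 in CKD mice and at 19.5, 25.0, 32.4 and 28.7 in CKD+Fe mice. CKD mice 1, 2 and 4 exceeded every control, and CKD mouse 3 lay within the control range. The difference of CKD from control was 0.67 (95% interval -0.024 to 1.35, adjusted p = 0.0799) and 1.01 without CKD mouse 3 (adjusted p = 0.00296). Median-of-ratios rescaling left 0.11 (adjusted p = 0.784).

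Enpep, aminopeptidase A, turns angiotensin II into angiotensin III. It had 27.9, 31.0, 18.7 and 36.1 FPKM in control mice, 41.0, 31.8, 19.8 and 40.0 in CKD mice, and 45.7, 36.1, 48.9 and 22.9 in CKD+Fe mice. Its groups overlapped in every comparison. CKD differed from control by 0.20 (95% interval -0.39 to 0.79, adjusted p = 0.531), and by -0.36 (adjusted p = 0.269) after median-of-ratios rescaling, which turned the direction.

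The other peptidases of the brush border mostly fell. Of 7 tested genes in that list, 5 were called lower and 1 higher in CKD, with a median log2 difference of -1.95 and a range of -3.36 to 0.61. Of all tested genes 13.3% were lower and 54.6% higher, with a median of 0.50. After median-of-ratios rescaling 6 were lower and none higher, where 29.3% and 28.8% of all genes were. Mep1b, the beta subunit of meprin, fell from 108 to 143 FPKM in controls to 6.83 to 20.9 in CKD mice (-3.36, adjusted p = 1.6e-06), and Ggt1, which breaks down glutathione, from 941 to 1360 to 149 to 346 (-2.33, adjusted p = 2.0e-05). Dpp4, a dipeptidyl peptidase also used by lymphocytes, was the riser, from 9.85 to 16.1 FPKM to 12.1 to 25.9 (0.61, adjusted p = 0.0286), which median-of-ratios rescaling took to 0.063 (adjusted p = 0.816). Among the members, Ace (-2.15) and Enpep (0.20) lay inside the range of this list and Mme (0.67) above it.

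Of 19 further genes of the pathway, 11 were tested, with 5 called higher and 2 lower in CKD and a median log2 difference of 0.32. Of all tested genes 54.6% were higher and 13.3% lower, with a median of 0.50. After median-of-ratios rescaling 1 was higher (Lnpep) and 2 lower (Anpep and Klk1), where 28.8% and 29.3% of all genes were. Lnpep, the aminopeptidase that binds angiotensin IV, rose most, from a mean of 1.79 ± 1.03 FPKM to 8.67 ± 4.95 (1.64, adjusted p = 0.0044), with CKD mouse 3 inside the control range. Thop1, Prep and Dpp3, soluble peptidases that cut angiotensins inside cells, rose by 0.53, 0.51 and 0.45 (adjusted p = 0.0125, 0.0087 and 0.0206), about the shift of all genes, and stood at 0.023, -0.025 and -0.11 after rescaling. Anpep, which trims angiotensin III and is also in the brush border list, fell by 1.18 on the log2 scale (adjusted p = 0.0077), with control mouse 3 the highest at 210 FPKM and CKD mouse 3 inside the control range. Klk1, the kallikrein that releases kinins, fell without overlap from 1084 to 1409 FPKM in control mice to 567 to 824 in CKD mice (-0.95, adjusted p = 0.00032). It stood at 801 to 1134 in CKD+Fe mice, which overlapped the CKD mice. No gene of this list was called in CKD+Fe against CKD as deposited. The remaining 8 pathway genes, the mast cell proteases Cma1, Mcpt4, Cpa3 and the neutrophil protease Ctsg among them, were below the filter.

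**Figure D2:**
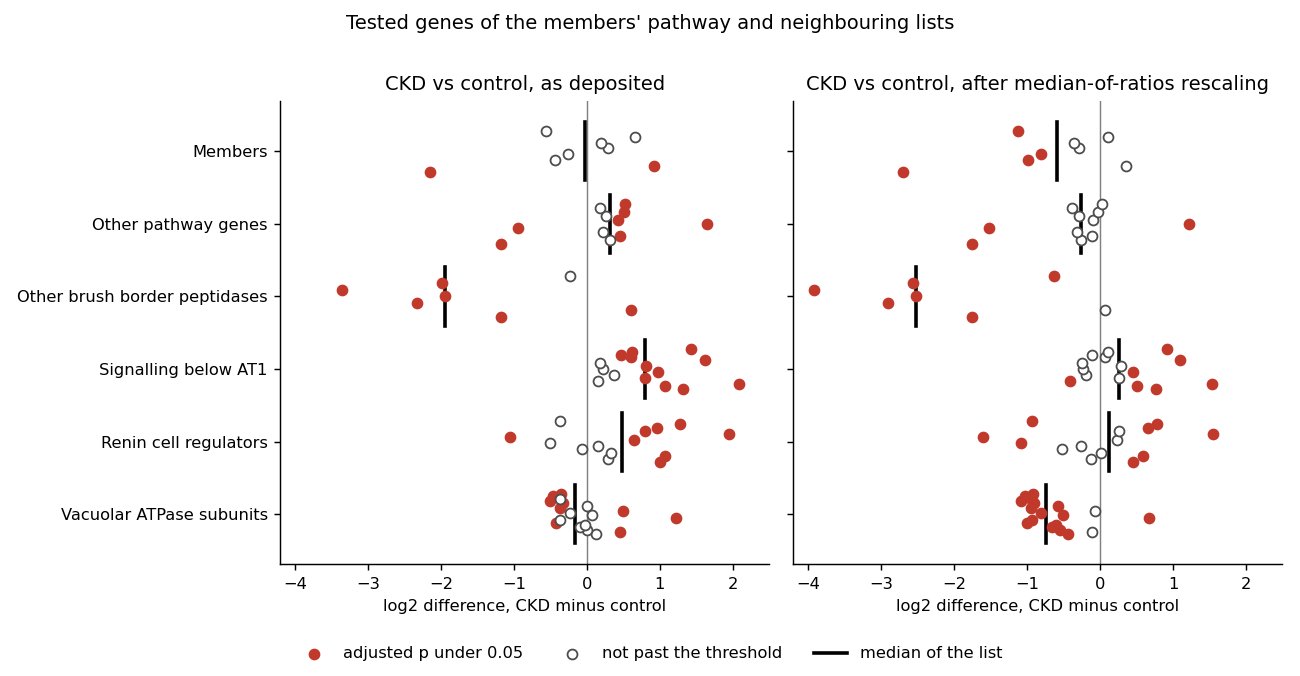
Log2 difference of CKD minus control for each tested gene (points, filled where the adjusted p is under 0.05) and the median of each list (vertical bars), as deposited (left) and after median-of-ratios rescaling (right). The brush border peptidases have the lowest median, -1.95 as deposited, and the members lie between -2.15 (Ace) and 0.92 (Agt), of which Agt is no longer called on the right.

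Several members are proximal tubule transcripts, so Agt, Ace, Agtr1a, Mme and Enpep were also measured against that cell type. Other kidney cells may carry them too, and the part of those cells was not tested. Within each mouse, the log2 value of a member minus the mean log2 value of the 12 proximal tubule markers is unchanged by a scaling factor applied to a whole mouse, apart from the pseudocount. The marker mean itself differed from control by -1.93 in CKD and -1.39 in CKD+Fe mice, so that the median of all tested genes lay 2.43 and 1.89 above control by this measure, and 93.1% and 86.5% of genes lay above control without overlap. Against that background Agt (2.84) and Mme (2.59) in CKD were somewhat above the median gene, and Enpep (2.13) and Agtr1a (1.49) below it. All 4 lay above control without overlap, as did nearly all genes, so the separation is not particular to them. The exact p was 0.0286 for each, the smallest that 4 against 4 mice allow. After Benjamini-Hochberg adjustment over the 18 within-mouse tests it was 0.0571, which is not past 0.05. At that floor the adjusted value depends only on how many of the 18 tests reach it. Ace moved by -0.22 in CKD (exact p = 0.486) with overlapping groups, from -1.90 ± 0.163 to -2.12 ± 0.617, where the median gene moved by 2.43. In CKD+Fe kidneys Ace stood at -2.98 ± 0.676, below control without overlap (-1.08, exact p = 0.0286, adjusted 0.0571), as were 0.639% of genes. That difference was -0.76 (exact p = 0.143) when the median of the markers replaced their mean. Agtr1a was the tightest of these measures in control mice (-3.46 ± 0.0594). Quantile normalization, which is not a single factor per mouse, took its difference in CKD+Fe against control from 1.06 to 0.52 (exact p = 0.0571).

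**Figure D3:**
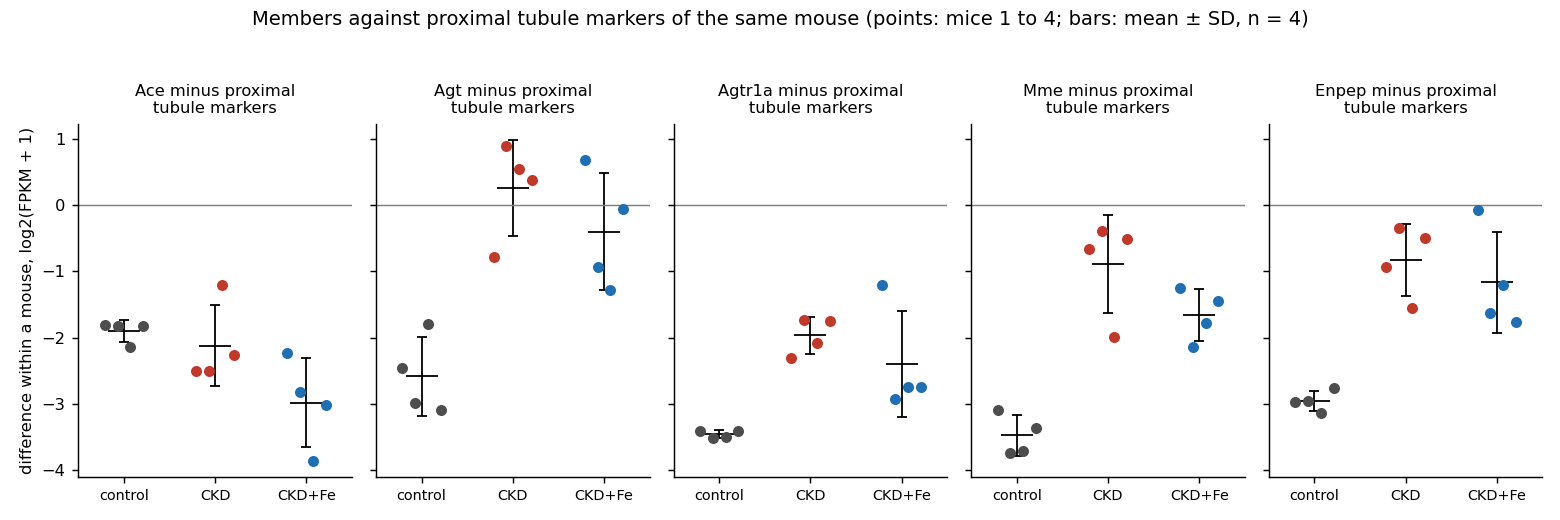
Difference within each mouse on the log2(FPKM + 1) scale between a member and the mean of the 12 proximal tubule markers, with mice 1 to 4 of each group from left to right and bars for mean ± SD (n = 4). Agt, Agtr1a, Mme and Enpep lie above control in every adenine-fed mouse, as 93.1% (CKD) and 86.5% (CKD+Fe) of all tested genes do, and Ace overlaps control in CKD.

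Whether iron dextran changed the members in CKD was asked by comparing CKD+Fe with CKD. None of the 8 was called by limma, the adjusted p ran from 0.958 to 0.993, and the lowest unadjusted p was 0.208 (Atp6ap2), so 0 members were under an unadjusted 0.05. The background was equally low, with 0.00761% of the tested genes (1 gene) called and 790 under an unadjusted 0.05. All 8 members overlapped between the groups, where 1.35% of genes lay wholly above and 1.09% wholly below. The intervals of the differences were wide, and a p that misses the threshold does not show that the groups were alike. Ren1 differed by 0.21 (95% interval -0.70 to 1.12), Agt by -0.12 (-0.62 to 0.38) and Ace by -0.32 (-1.05 to 0.40). For the receptor side the differences were 0.10 for Agtr1a (-0.30 to 0.51), -0.13 for Agtrap (-0.43 to 0.17) and 0.23 for Atp6ap2 (-0.14 to 0.60). The peptidases gave -0.23 for Mme (-0.92 to 0.46) and 0.20 for Enpep (-0.38 to 0.79). Without the 3 mice that stood apart, Ace was at 0.015, Agtr1a at -0.050 and Enpep at -0.12, each on the other side of 0, none past the threshold.

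CKD+Fe was also set against control, with the same control mice as in the CKD comparison, so the pair of comparisons is not independent. There 2 members were called higher (Agt and Atp6ap2) and 2 lower (Ace and Agtrap), where 54.4% of tested genes were called higher and 11% lower, 65.4% in all. Ace and Agtrap lay wholly below control, as did 9.85% of genes, and none lay wholly above, against 50.4%. Ace differed by -2.47 (SE 0.34, adjusted p = 4.2e-05), Mme by 0.43 (adjusted p = 0.245), Enpep by 0.40 (adjusted p = 0.207) and Ren1 by -0.35 (adjusted p = 0.481). After median-of-ratios rescaling Ace, Agtrap and Agtr1a were called lower and none higher, with 27.7% of genes higher and 27.5% lower, 55.2% in all, and Mme (-0.11) and Enpep (-0.15) changed direction. Quantile normalization called Agt higher (0.67) and Ace (-2.71), Agtrap (-0.70) and Agtr1a (-0.75) lower, beside 19.8% and 22.6% of genes, 42.4% in all. The Agtrap call was lost without control mouse 4 (-0.34, adjusted p = 0.0703), CKD+Fe mouse 3 (-0.38, adjusted p = 0.0534) or CKD+Fe mouse 4 (-0.32, adjusted p = 0.0811). The Atp6ap2 call was lost without control mouse 3 (0.41, adjusted p = 0.0514) or CKD+Fe mouse 3 (0.46, adjusted p = 0.0534).

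**Figure D4:**
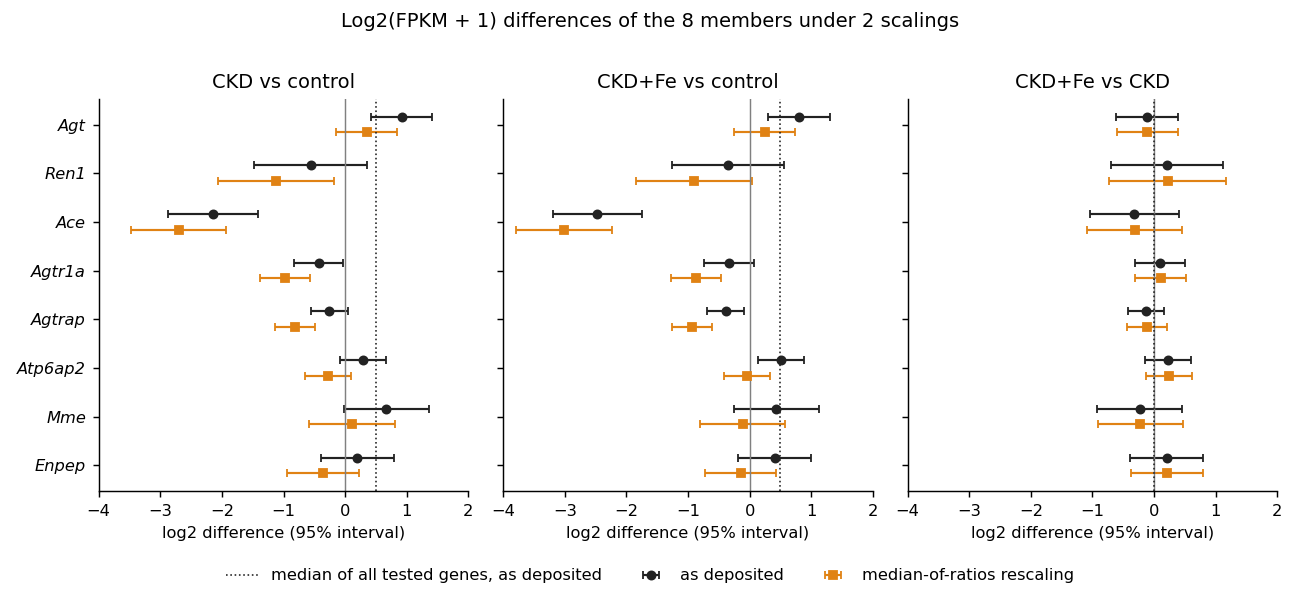
Log2 difference of each member with its 95% interval in the 3 comparisons, as deposited (circles) and after median-of-ratios rescaling (squares), and the median of all tested genes as deposited (dotted line). Against control, Ace lies to the left of 0 on both scales, Enpep and Atp6ap2 cross from right to left under rescaling in both comparisons and Mme in CKD+Fe, and all intervals of CKD+Fe against CKD include 0.

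The genes closest to each member in pattern were found by the root mean square difference, over the 12 mice, of log2 values after subtracting each gene's control mean. This is a description, and the mice share the all-gene shift. Ace was nearest to Selenbp2 (0.37), Susd2 (0.39) and Me1 (0.40), all of which fell by about as much, to -2.02, -2.05 and -2.24 in CKD against control. Agt was nearest to Pole (0.18), Bex2 (0.20) and Fen1 (0.20), of which Pole and Fen1 act in DNA replication. Their control and CKD means were low, at 0.983 and 2.52 FPKM for Pole, 0.501 and 1.65 for Bex2, and 3.61 and 8.17 for Fen1. Agt stood at 36.9 and 71.0. At such low levels log2(FPKM + 1) shrinks a change, so the match holds on that scale and not for the fold change. Ren1 had no close neighbour, with Htra1 (0.46), Ccdc91 (0.47) and St3gal3 (0.48) the nearest. Agtr1a lay nearest to Mtus1 (0.15), Mpv17 (0.17) and Zdhhc9 (0.17), and Agtrap nearest to Ubac2 (0.10), Psmd11 (0.10) and Ergic1 (0.11). Among the genes nearest to Mme were Eif2s3x (0.15) and Zbtb20 (0.15). Enpep lay nearest to B3galnt1 (0.24), Wdr7 (0.24) and Cyp2r1 (0.24), and Atp6ap2 to Asph (0.10), Mapk9 (0.10) and Dnajb14 (0.11).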

How the data were processed

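RNA of 12 whole kidneys, 4 per group, 1 library per mouse, was sequenced by the authors from stranded mRNA libraries with single-end reads. Per the submitters' processing notes, the tools were bcl2fastq 2.19, STAR 2.5.2 and Cufflinks 2.1.1 and the build GRCm38; the annotation version is not given in the sources used here. The authors deposited FPKM values per gene and mouse, made from the aligned reads and not changed here. Of these, 30 values in 17 genes had a failed estimate and were treated as missing. Read totals are not in the values: from the smallest steps of low genes the depth of the mice was 0.680 to 1.0 times that of control mouse 1, so the error of a single value is unknown. FPKM summed to 503438 to 707843 per mouse. In the controls a single kidney transcript, Kap, took 10.6 to 12.7% of that sum, against at most 1.70% in adenine-fed mice.

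Genes at 1 FPKM or more in at least 4 mice were tested after taking log2(FPKM + 1). The test was that of limma (version 3.58.1, R version 4.3.3), with 1 model over the 3 groups, a variance trend and Benjamini-Hochberg adjustment. A log2(FPKM + 1) difference understates the change of low genes. Within-mouse differences were tested with exact two-sided permutation tests over 70 arrangements. The study's methods state DESeq2 on read counts, which does not apply to FPKM. Normal data were simulated from each gene's control mean and fitted spread, for CKD against control over 13148 genes. There 76 of 102 genes changed 2-fold and 96 of 98 changed 4-fold were called, with 9 unchanged genes called. Only genes above a set control level were changed, and the simulation held no shift of all genes and no mice that stand apart. Its rates therefore do not carry over to the real comparison. Groups came from the sample labels. The mice were numbered in accession order. The labels name no batch, and p-values measure the spread between these mice.

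The members and all gene lists were chosen with earlier results of these data known. Named besides the members were, among called genes in CKD against control, the largest changes of each list (4 in each direction for the pathway, 2 for the others), and the 3 genes nearest in pattern to each member. Some genes that the lists and this rule would include are not reported here, and counts, medians and tests of the lists leave them out. Single genes outside this rule (Mas1, Ptgs2 and the receptors and proteases below the filter) were named after their values were seen. The gene Dpep1 of the brush border list had no row, and of a pair of rows named Itgam the one with the reference identifier was used. Alternatives were other scalings, pseudocounts, filters, weights and thresholds, the groups compared alone, and each mouse left out.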

Additional observations from a re-analysis of the deposited data

Results flagged for a closer look

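In 42 groups of 4 mice the most extreme mouse was compared with the range of its group by Dixon's ratio, and 2 groups passed its 95% critical value. Chance alone flags about 1 in 20 groups. In control mouse 3, log2 Ace minus the mean of the proximal tubule markers was -2.15, the lowest of the 4 control mice (ratio 0.925), which otherwise lay between -1.83 and -1.80. In CKD+Fe mouse 1, log2 Agtr1a minus the same markers was -1.21, the highest of the 4 CKD+Fe mice (ratio 0.895), which otherwise lay between -2.93 and -2.74. Both mice are among the 3 that stood apart from their groups.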

How the results depend on the processing

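No paired analysis was possible because the groups share no replicate numbers in the labels. Of the comparisons of single members, Ace against control stayed called in both adenine groups under every alternative run, and Agt under all but median-of-ratios rescaling, while no member was called in CKD+Fe against CKD under any at an adjusted p of 0.05. Where a value below changed its direction or its side of the threshold, the cause was not tested, and all values are log2 differences or counts of called genes.

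Median-of-ratios rescaling, which removes the shift of all genes, moved the most results. In CKD against control it gave Ren1 -1.13, Agt 0.35, Agtr1a -0.98, Enpep -0.36, Atp6ap2 -0.28 and Agtrap -0.81, with 0 members higher and 4 lower. The lists then had 1 pathway gene higher, 3 renin cell regulators lower, 6 AT1 signalling genes higher and 1 lower, 1 vacuolar ATPase subunit higher and 15 lower, and 0 brush border peptidases higher. For CKD+Fe against control it gave Agt 0.24, Agtr1a -0.87, Mme -0.11, Enpep -0.15 and Atp6ap2 -0.047, with 0 members and 0 pathway genes higher and 2 pathway genes lower. Renin cell regulators were then 4 higher and 3 lower, AT1 signalling genes 5 higher and 2 lower, vacuolar ATPase subunits 1 higher and 13 lower, and brush border peptidases 0 higher.

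Quantile normalization gave in CKD against control Agtr1a -0.85, Enpep -0.026 and Agtrap -0.56, with 3 members lower, 1 pathway gene higher, 3 renin cell regulators higher and 3 lower, 7 AT1 signalling genes higher and 2 lower, 1 vacuolar ATPase subunit lower and 0 brush border peptidases higher. In CKD+Fe against control it gave Agtr1a -0.75, Atp6ap2 0.50 and Agtr1a minus the proximal tubule markers 0.52, with 1 member higher, 1 pathway gene higher and 0 lower, 2 renin cell regulators higher, 6 AT1 signalling genes higher and 2 lower, 5 vacuolar ATPase subunits higher and 0 lower, and 0 brush border peptidases higher.

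Array quality weights, which count less consistent mice less, gave in CKD against control Ren1 -0.91, Agtr1a -0.46, Mme 0.80, Atp6ap2 0.39 and Agtrap -0.28, all called. With them 3 members were higher and 4 lower, and 3 renin cell regulators were lower. Of all 13148 tested genes, 7994 were then called higher and 2192 lower. For CKD+Fe against CKD the weights gave Agtr1a -0.043 and Enpep -0.045, with 1 pathway gene higher, beside 91 of all tested genes. Against control, CKD+Fe then had Ren1 -0.91 and Agtr1a -0.50, with 4 members, 2 renin cell regulators and 5 vacuolar ATPase subunits lower, beside 1981 of all tested genes. Leaving out control mouse 3, CKD mouse 3 and CKD+Fe mouse 1 together, chosen after seeing the data, gave in CKD against control Ren1 -1.04, Agtr1a -0.55, Mme 0.81, Atp6ap2 0.33 and Agtrap -0.38, with 3 members higher, 4 lower and 3 renin cell regulators lower. In that fit 7811 of all 13148 tested genes were higher and 2063 lower. For CKD+Fe against CKD the same omission gave Ace 0.015, Agtr1a -0.050, Enpep -0.12 and Atp6ap2 minus the pump subunits -0.013. Against control it gave Agtr1a -0.60 with 2 renin cell regulators lower, beside 1666 of all tested genes.

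With only the groups compared in the fit, Agtr1a (-0.43) was called in CKD against control, making 2 members lower, beside 1627 of all 13148 tested genes. At an adjusted p of 0.5, 3 members were higher and 4 lower in CKD, and 4 higher and 4 lower in CKD+Fe, against control. The share of all tested genes past 0.5 was not counted. At 0.05 it was already 67.9% in CKD and 65.4% in CKD+Fe, so these counts cannot be read as a result about the members. In CKD+Fe against control a filter at a mean of 5 FPKM left 5 renin cell regulators higher, beside 4749 of 9702 genes. Without a variance trend 1 vacuolar ATPase subunit was lower, beside 1423 of 13148 genes. With the median of the list in place of its mean, Ace minus the proximal tubule markers was 0.083 in CKD and -0.76 in CKD+Fe, and Atp6ap2 minus the pump subunits was 0.64 in CKD+Fe, against control.

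Leaving out each mouse in turn gave in CKD against control Agtr1a -0.57 to -0.34, Mme 0.44 to 1.01, Atp6ap2 0.18 to 0.43, Agtrap -0.34 to -0.15 and Mme minus the proximal tubule markers 2.43 to 2.96. Members called were then 1 to 3 higher (most without CKD mouse 3, and 2 without control mouse 4) and 1 to 2 lower (2 without control mouse 3 or CKD mouse 3), pathway genes 3 to 5 higher (3 without control mouse 3), renin cell regulators 1 to 2 lower (2 without control mouse 3 or 4 or CKD mouse 3), vacuolar ATPase subunits 1 to 3 higher (1 without control mouse 1 or CKD mouse 4) and 3 to 8 lower (3 without control mouse 1 or 2), and brush border peptidases 0 to 1 higher (1 without control mouse 2 or 4 or CKD mouse 3). Over all 13148 tested genes the same fits called 6574 to 7348 higher and 1550 to 1876 lower. The ranges in CKD+Fe against CKD crossed 0 for Ren1 (-0.052 to 0.52, below 0 without CKD+Fe mouse 1 or 2), Agt (-0.31 to 0.033, above 0 without CKD mouse 3 or CKD+Fe mouse 3), Ace (-0.62 to 0.0017) and Enpep (-0.017 to 0.43), both turned without CKD mouse 3, and Agtr1a (-0.034 to 0.24, below 0 without CKD+Fe mouse 1). They also crossed 0 for Atp6ap2 minus the pump subunits (-0.055 to 0.15, below 0 without CKD mouse 3). Against the proximal tubule markers, CKD+Fe differed from CKD with all mice by -0.86 for Ace, -0.44 for Agtr1a and -0.77 for Mme. None was past 0.05 (exact p = 0.114, 0.343 and 0.114), and the median of all tested genes moved by -0.54 by this measure. With mice left out the ranges were -1.11 to -0.56 for Ace and -0.84 to -0.27 for Agtr1a, with exact p = 0.0286 without CKD+Fe mouse 1. For Mme the range was -1.14 to -0.60, with exact p = 0.0286 without CKD mouse 3.

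The same procedure gave, in CKD+Fe against control, Agtr1a -0.47 to -0.20 (called without control mouse 3 or CKD+Fe mouse 1), Atp6ap2 0.41 to 0.64 and Agtrap -0.45 to -0.32. Members called were 1 to 2 higher and 1 to 3 lower, pathway genes 2 to 4 higher and 0 to 1 lower, renin cell regulators 1 to 2 lower and vacuolar ATPase subunits 1 to 2 lower, with the smaller counts reached without control mouse 3, CKD+Fe mouse 3 or several other mice. Over all 13148 tested genes these fits called 6570 to 7190 higher and 1238 to 1460 lower. The proximal tubule differences were 1.83 to 2.48 for Agt, -1.33 to -0.79 for Ace and 0.66 to 1.23 for Agtr1a, and Atp6ap2 minus the pump subunits was 0.34 to 0.55. With 3 mice against 4 there are 35 arrangements, and some within-mouse differences then had an exact p of 0.0571 although their groups stayed apart. The values carry no read depth, so the counting error of low genes is unknown.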

Other observations

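The marker lists of other cells are given here beside the members as values. Fibroblast markers, 6 genes, summed to 55.3 to 79.1 FPKM in control, 395 to 740 in CKD and 312 to 446 in CKD+Fe mice. All 6 were called higher in CKD, as were 54.6% of all tested genes. Podocyte markers summed to 78.1 to 97.6 FPKM in control, 141 to 187 in CKD and 83.0 to 342 in CKD+Fe mice. Endothelial markers, from the cells that carry Ace in most vascular beds, summed to 96.2 to 189, 88.5 to 114 and 87.1 to 142 FPKM. In CKD 1 of 6 was called lower as deposited and 5 of 6 after median-of-ratios rescaling, where 13.3% and 29.3% of all tested genes were. Markers of the thick ascending limb and distal tubule summed to 1607 to 2238, 2327 to 3556 and 2022 to 3199 FPKM, and urothelium markers to 1.14 to 23.2, 1.09 to 24.5 and 3.54 to 24.9. Collecting duct markers summed to 373 to 1781, 190 to 451 and 269 to 535 FPKM. Mast cell markers, from the cells that make the angiotensin-forming chymases, summed to at most 11.1 FPKM, of which Kit made up 83.8 to 100%, while Cpa3, Mcpt4, Cma1 and Tpsb2 each reached at most 0.510 FPKM and Mcpt4 was listed at 0 in 8 of 12 mice. Adipocyte markers reached 128 FPKM in CKD+Fe mouse 4 and at most 13.5 in the other 11 mice. The part of these cells in the members' values was not tested.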
